A study of Homo sapiens with 4 samples.

Results

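The zinc finger (ZNF) genes of chromosome 19 were examined in 4 peak lists, 1 for each antibody and cell line. A gene was a member when its symbol in the lists was ZNF followed by digits and at most 1 letter and its peak lay on chromosome 19. This rule found 228 genes among the 18620 genes listed in the 4 files. Of the members, 207 were listed near an H3K4me3 peak in RS4;11 and 222 in THP-1, together 226, and 10 near a WDR5 peak in RS4;11 and 0 in THP-1. The other 2, ZNF560 and ZNF229, were listed for WDR5 only.

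RS4;11 is an established human cell line from a B-cell precursor acute lymphoblastic leukemia, and THP-1 is one from a monocytic acute myeloid leukemia. Both carry a rearranged MLL gene. Neither was given any treatment in the labels, and chromatin of each was precipitated once with an antibody to WDR5 and once with an antibody to trimethylated lysine 4 of histone H3 (H3K4me3). The study used these lists to locate WDR5 and H3K4me3 across the genome of leukemia cells. The labels' line names are used throughout, since their leukemia type is lymphoblastic for both WDR5 libraries and myeloid for both H3K4me3 libraries, whichever the line. Each combination was 1 library with no replicate, so differences between the lines are descriptions of these libraries without any test. The intervals given are 95% intervals that cover counting over genes or peaks only.

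Most human genes for KRAB zinc finger proteins stand in tandem clusters, and chromosome 19 holds the largest number of them. In such a gene the short first exons encode the KRAB box, which recruits the corepressor TRIM28, while the last exon encodes the array of C2H2 fingers that reads DNA. Many of these proteins silence transposable elements, and their clusters grew by repeated duplication, so neighbouring genes resemble each other closely. H3K4me3 marks active or poised promoters, and WDR5 is a core subunit of the MLL family methyltransferase complexes that write it.

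The libraries were first compared with marker genes of the lines. Of 9 B-cell precursor genes, 2 had an H3K4me3 peak at an exon in RS4;11 and 4 in THP-1, so this list did not follow the lineage of RS4;11. CD79A, a part of the B-cell receptor, was marked in RS4;11 only, and the peak at its partner CD79B was 2921 bp wide in RS4;11 and 946 bp in THP-1. PAX5, the B-lineage commitment factor, had no peak listed in RS4;11 and one of 4037 bp in THP-1. EBF1 and BLNK also had an exon peak in THP-1 only, and VPREB1, IGLL1, RAG1 and DNTT had none in either line. Of 10 monocytic genes, 5 were marked in RS4;11 and 8 in THP-1, and CSF1R, CSF3R, FCGR1A and S100A9 were marked in THP-1 only. CEBPE, a granulocyte factor, went the other way, with a peak of 3125 bp in RS4;11 only. With markers on both sides, an exchange of the H3K4me3 libraries was not tested; it would turn round every count given for 1 line only. No listed peak was wider than 4478 bp in RS4;11 or 4446 bp in THP-1. Whether wider domains are missing from the lists was not tested, and a gene without a listed peak cannot be taken as unmarked. The lists hold positions and flags without peak heights, read numbers or depths.

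The promoters of 4 genes are shown because they stand for the 4 patterns described below: ZNF91, marked in both lines; ZNF208, its paralog in the same cluster with no listed peak; ZNF146, marked in RS4;11 only; and ZNF568, marked in THP-1 only. Each is the 250 bases before the RefSeq gene start, 5′ to 3′ on the gene's strand, in build GRCh38.p14, with CG dinucleotides in capitals.
ZNF91 (chr19:23395472-23395721, minus strand): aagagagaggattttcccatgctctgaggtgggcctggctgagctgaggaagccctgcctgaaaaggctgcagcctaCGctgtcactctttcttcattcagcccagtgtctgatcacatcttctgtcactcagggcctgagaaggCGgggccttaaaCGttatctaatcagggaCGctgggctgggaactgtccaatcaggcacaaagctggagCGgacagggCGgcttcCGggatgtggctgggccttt
ZNF208 (chr19:22010944-22011193, minus strand): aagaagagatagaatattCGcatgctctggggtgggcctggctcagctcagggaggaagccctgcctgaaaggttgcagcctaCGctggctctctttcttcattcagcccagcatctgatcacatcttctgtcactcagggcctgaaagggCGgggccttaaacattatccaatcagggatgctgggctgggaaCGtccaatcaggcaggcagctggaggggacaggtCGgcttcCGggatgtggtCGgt
ZNF146 (chr19:36214856-36215105, plus strand): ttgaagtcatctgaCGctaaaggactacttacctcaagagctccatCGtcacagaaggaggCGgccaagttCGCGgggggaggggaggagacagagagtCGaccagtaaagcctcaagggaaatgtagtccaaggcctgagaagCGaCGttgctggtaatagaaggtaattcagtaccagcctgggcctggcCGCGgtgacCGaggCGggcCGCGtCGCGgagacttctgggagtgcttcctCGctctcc
ZNF568 (chr19:36916082-36916331, plus strand): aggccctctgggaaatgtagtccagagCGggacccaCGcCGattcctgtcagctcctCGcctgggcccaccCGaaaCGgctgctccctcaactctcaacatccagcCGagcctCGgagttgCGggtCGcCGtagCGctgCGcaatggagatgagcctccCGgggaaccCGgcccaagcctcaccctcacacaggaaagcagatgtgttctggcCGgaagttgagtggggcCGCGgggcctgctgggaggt

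The ZNF91 and ZNF208 promoters were 86.4% identical over 257 aligned columns, against 44.9% to 51.9% for the other 5 pairs. Each of these paralogs held 7 CG dinucleotides in the 250 bases, while ZNF146 held 17 and ZNF568 held 18. The CCAAT motif, searched on both strands, was present in the ZNF91 and ZNF208 stretches and not in the other two.

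In RefSeq's promoter table, which takes 250 bases before and 50 bases after each start, 195 members had an entry. Their median number of CG dinucleotides was 20 (19 to 22), against 14 (13 to 14) over all 27305 promoters. The ratio of observed to expected CG was at least 0.6 in 80.0% of the members' promoters and in 49.0% of all. CCAAT stood in 53.3% of the members' promoters (46.3% to 60.2%) and in 35.7% of all, while TATAAA, also searched on both strands, stood in 2.05% and 11.95%. The members' promoters were therefore richer in CG and CCAAT and poorer in TATAAA than the table as a whole.

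The patterns of marking, taken by exon peaks, were compared by their promoters. The median CG number was 20 in genes marked in both lines, 19 in those marked in RS4;11 only, 23 in those marked in THP-1 only and 18 in those marked in neither, and the interval of each of the smaller groups included 20. The 21 matched genes not listed under a ZNF symbol had a median of 16 (10 to 27). In 61.9% of them the ratio was at least 0.6 (40.9% to 79.2%), against 78.9% of those marked in both (71.4% to 84.8%). These 21 are not a set of unmarked genes. They include ZNF875, listed as HKR1, and ZNF865 and ZNF587B, whose 5′ end lay under a peak in both lines. ZNF404, with its 5′ end under a THP-1 peak, is also among them. CCAAT was found in 36.8% of the 19 promoters of genes with an exon peak in neither line (19.1% to 59.0%). It was found in 55.6% of the 142 marked in both (47.4% to 63.5%). The 19 include 7 genes whose annotated 5′ end lay under a peak in both lines, so they are not a set of unmarked promoters.

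H3K4me3 peaks touched an exon of 177 of the 226 members in RS4;11 (78.3%, 72.5% to 83.2%) and of 191 in THP-1 (84.5%, 79.2% to 88.6%). Over all 18538 genes listed in either H3K4me3 file, 60.1% had such a peak in RS4;11 and 66.4% in THP-1. The share among members was also above the 62.4% and 65.1% of the other genes of chromosome 19, and near the 76.9% and 79.2% of the ZNF genes on other chromosomes. An exon peak was present in both lines for 165 members, in RS4;11 only for 12, in THP-1 only for 26 and in neither for 23.

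The file lists only genes within 20 kb of a peak, so the 5′ ends of all annotated protein-coding genes were used as a fixed denominator. Of 246 annotated ZNF genes of chromosome 19, the 5′ end lay under a peak in 163 in RS4;11 (66.3%, 60.1% to 71.9%) and in 177 in THP-1 (72.0%, 66.0% to 77.2%). Over 20163 protein-coding genes these shares were 45.7% and 48.4%. Of the 246 genes, 25 are not members, among them ZNF208, ZNF676 and ZNF729 of 1 cluster and ZNF382 of another. For ZNF888, ZNF865 and ZNF587B the 5′ end lay under a peak in both lines and for ZNF404 in THP-1, so these 4 are missing from the authors' gene table, and ZNF875 is listed there under its older symbol HKR1. For the other 20, the lists do not tell a gene without a peak within 20 kb from one missing from that table.

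Exons accounted for a large part of the peaks at these genes. In RS4;11, 178 of the 261 peaks listed at members touched a member's exon (68.2%, 62.3% to 73.6%), and in THP-1 189 of 280 (67.5%, 61.8% to 72.7%). Over all genes, with an exon of any gene counted, the shares were 46.7% and 47.4%. Counted that way, the members' peaks stood at 77.8% in RS4;11 and 77.5% in THP-1. Peaks in introns alone were rare at the members, with 6 peaks in each line, or 2.30% in RS4;11 and 2.14% in THP-1, against 33.5% and 30.2% over all genes. At the other genes of chromosome 19 intron peaks made up 17.0% and 15.4%. The remaining 77 and 85 peaks lay within 20 kb outside the members' own transcripts, and some of them touched an exon of another gene.

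Most exon peaks sat at the gene start, and few peaks lay at the last coding exon. The start of the canonical transcript was covered in 181 of 246 genes in RS4;11 and 196 in THP-1. Among annotated members with an exon peak it was not covered in 3 of 174 in RS4;11 and 4 of 188 in THP-1. The last coding exon held a median of 87.6% of the coding sequence and began a median of 16621 bp from the start. In 215 genes with several coding exons it lay at least 5 kb away. No listed peak was wider than 4478 bp, so there a peak over the start could not reach it. A separate peak lay at it in 1 of these genes in RS4;11, ZNF428 (0.47%, 0.08% to 2.59%). In THP-1 it did so in 0 (0% to 1.76%). Over all 15324 protein-coding genes with such a distance, 2.50% and 2.37% had a separate peak at the last coding exon. The RS4;11 interval includes this background and the THP-1 interval does not. In the remaining 31 ZNF genes, with a nearer last exon or a single coding exon, it lay under a peak in 1 in RS4;11 and 3 in THP-1.

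From a covered start, the peak ran a median of 830 bp upstream (718 to 926) and 1359 bp downstream (1311 to 1415) in RS4;11. In THP-1 it ran 777.5 bp upstream and 1312 bp downstream. The downstream side was the longer one in 81.2% of the genes in RS4;11 (74.9% to 86.2%) and 84.7% in THP-1 (79.0% to 89.1%), against 74.5% of all protein-coding genes in either line. The profile around the start shows a plateau with steep edges: at 2 kb downstream 12 of the 246 genes were still covered in RS4;11 (4.88%) and 11 in THP-1 (4.47%), against 11.7% and 12.6% of all genes.

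**Figure D1:**
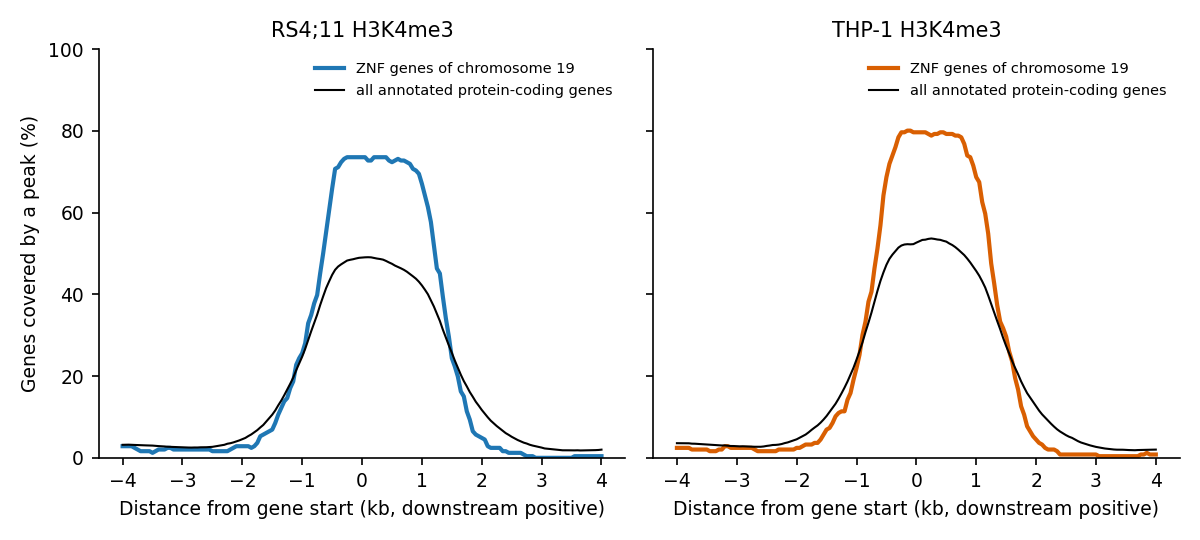
Share of genes (%) covered by an H3K4me3 peak at each distance (kb) from the start of the canonical transcript, for the 246 annotated ZNF genes of chromosome 19 (coloured) and all 20155 annotated protein-coding genes (black), in RS4;11 (left) and THP-1 (right). At the start the ZNF curve stands at 73.6% in RS4;11 and 79.7% in THP-1 and the other at 49.0% and 52.7%, and beyond 2 kb downstream the ZNF curve lies below it.

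The exon peaks of the members were similar in width to each other. Their median width was 2283.5 bp in RS4;11 (2192 to 2342), with the middle of the distribution, from the lower to the upper quartile, between 1933 and 2605 bp. In THP-1 the median was 2174 bp (2086 to 2282) and the quartiles were 1871 and 2541 bp. Over all genes the medians were 2359 bp and 2149 bp. Wide peaks were fewer among the members: 21 peaks reached 3 kb in RS4;11 (11.8%) and 17 in THP-1 (8.99%), against 25.2% and 19.8% over all genes, 18.2% and 14.7% at the other genes of chromosome 19 and 26.6% and 19.5% at ZNF genes of other chromosomes.

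In each line the widest exon peak of a gene marked in both was that of ZNF576, 4136 bp in RS4;11 and 3769 bp in THP-1. In RS4;11 it was followed by ZNF296 (3596 bp), ZNF574 (3455 bp), ZNF260 (3426 bp) and ZNF345 (3418 bp), whose THP-1 peaks measured 3035, 3197, 3106 and 3227 bp. In THP-1 it was followed by ZNF253 (3510 bp), ZNF225 (3505 bp), ZNF473 (3376 bp) and ZNF460 (3308 bp), which measured 3192, 2715, 2791 and 3337 bp in RS4;11. All 9 genes were thus above the median width of their class in both lines.

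The narrowest exon peak was that of ZNF773, with 721 bp in RS4;11 and 625 bp in THP-1. ZNF419 came next in each line, with 968 bp and 1034 bp. These 2 genes, with ZNF772 (992 bp in RS4;11 and 1516 bp in THP-1), ZNF544 (1276 and 2287 bp) and ZNF329 (1449 bp in RS4;11 and 1296 bp in THP-1), all belong to the cluster at the long-arm end. ZNF221 (1373 and 1377 bp), ZNF599 (1592 and 1061 bp) and ZNF787 (3071 and 1222 bp) completed the list of the narrowest 5 of each line.

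Widths followed each other across the lines. Over the 165 genes marked in both, the widest exon peaks gave a Pearson r of 0.74 and a Spearman rho of 0.71 as a description across genes, some of which share a peak, against 0.60 and 0.62 over 9683 genes of all kinds. The median of the difference, RS4;11 minus THP-1, was 80 bp (44 to 141), and 105 of the 165 peaks were wider in RS4;11 (63.6%, 56.1% to 70.6%). Over all genes the median difference was 24 bp (14 to 37) with 52.3% wider in RS4;11, and at ZNF genes of other chromosomes it was 96.5 bp (13 to 228) with 58.3%. The median size of the difference in either direction was 232 bp, and in 4 genes it reached 1000 bp. These were ZNF787, ZNF763 (2410 and 1405 bp) and ZNF181 (3076 and 2075 bp), wider in RS4;11, and ZNF544, wider in THP-1.

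**Figure D2:**
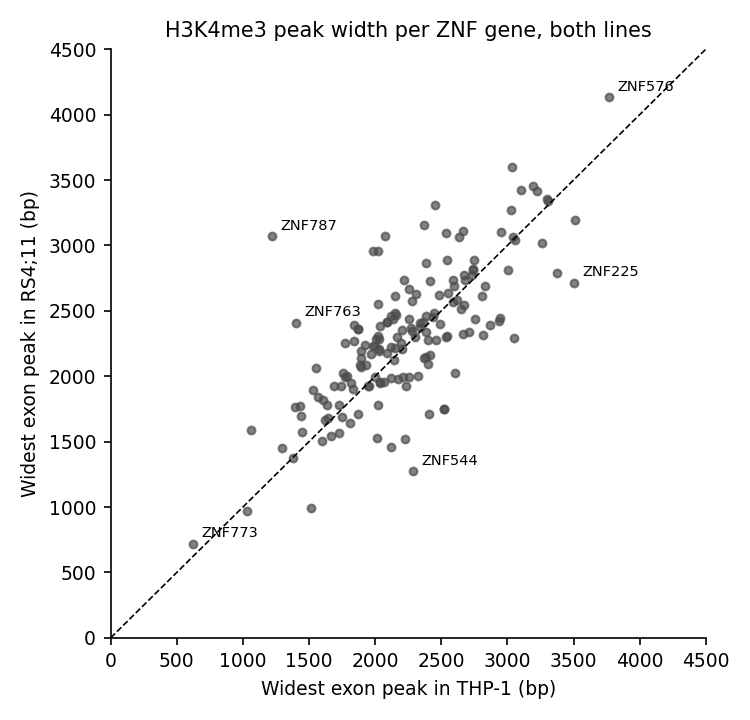
Width (bp) of the widest H3K4me3 exon peak of each of the 165 chromosome 19 ZNF genes marked in both lines, THP-1 on the horizontal and RS4;11 on the vertical axis, 1 point per gene; the dashed line marks equal width. Points gather around the line, with ZNF787 (3071 bp in RS4;11 and 1222 bp in THP-1) farthest above it and ZNF544 (1276 and 2287 bp) below it.

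By the exon flags, few peaks touched exons of several ZNF genes. In RS4;11, 167 of the 178 exon peaks touched exons of 1 gene, 3 touched 2 ZNF genes and 8 touched a ZNF gene and another gene. In THP-1 the numbers were 176, 5 and 8. The pairs with exons under 1 peak in both lines were ZNF540 with ZNF571 (2360 bp in RS4;11 and 1871 bp in THP-1) and ZNF177 with ZNF559 (2418 and 2088 bp). No annotated start of ZNF177 lay under a peak in either line, so its mark rests on the exon flag alone. ZNF146 with ZNF565 shared a peak in RS4;11 only, and ZNF568 with ZNF829, ZNF490 with ZNF791 and ZNF580 with ZNF581 did so in THP-1 only. Each such pair counts as 2 genes in the numbers above although it rests on 1 peak. By annotated 5′ ends, other pairs also lay under 1 peak in both lines, such as ZNF345 with ZNF790 and ZNF468 with ZNF28.

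Among genes with a described role, ZNF91 and ZNF93, which repress the SVA and L1 retrotransposons of primates, were marked in both lines. The ZNF91 peak measured 2342 bp in RS4;11 and 2710 bp in THP-1, and that of ZNF93 3272 bp and 3026 bp. ZNF274, which brings SETDB1 to the 3′ ends of ZNF genes, had peaks of 2317 bp and 2813 bp. ZNF224 (2305 and 2546 bp), ZNF350 (1922 and 1954 bp), ZNF331 (1927 and 1744 bp), ZNF420 (2820 and 2740 bp), ZNF430 (2515 and 2646 bp) and ZNF671 (2229 and 1983 bp) were also marked in both lines.

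The other genes of that list did not have an exon peak in both. ZNF146 was marked in RS4;11 only, and ZNF43, ZNF568 and ZNF582 in THP-1 only, with widths of 1991, 1571 and 1412 bp. ZNF154 had no exon peak in either line, although 2 peaks were listed within 20 kb in each. ZNF208 and ZNF382 were not listed.

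Genes marked in 1 line only made up 38 of the 203 members with an exon peak (18.7%, 13.95% to 24.6%), against 29.7% over all genes. Exon peaks in RS4;11 only were found for 12 of 226 members (5.31%, 3.06% to 9.05%), where the share over all listed genes was 7.9%, and in THP-1 only for 26 (11.5%, 7.97% to 16.3%), where it was 14.1%. With all listed genes as denominator, the members' share was below the background in both directions, and the intervals include the background. Among the 203 members with an exon peak, 5.91% were marked in RS4;11 only (3.41% to 10.05%), against 10.63% of all genes with such a peak. In THP-1 only it was 12.81% (8.89% to 18.1%), against 19.04%. With this denominator both intervals lie below the background. For none of these 38 genes did the widest exon peak overlap a peak of the other line, while over all genes 16.4% of those of RS4;11 only and 3.97% of those of THP-1 only did. Of all exon peaks at members, 92.7% in RS4;11 and 87.3% in THP-1 overlapped a peak of the other line, against 80.1% and 71.4% over all genes. The 5′ end was under a peak of the other line for 1 of the 12, ZNF569, and 2 of the 26, ZNF580 and ZNF581, so for these the exon flag and the start disagreed.

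In RS4;11 the widest of these peaks was the one shared by ZNF146 and ZNF565 (chr19:36704584-36707748, 3165 bp). The nearest THP-1 peak lay 7714 bp away and measured 1407 bp. ZNF607 (2336 bp), ZNF491 and ZNF569 (2294 bp each), ZNF714 (2050 bp), ZNF844 (1992 bp), ZNF563 (1921 bp), ZNF233 (1615 bp) and ZNF625 (1356 bp) followed. For ZNF569 a THP-1 peak of 2032 bp began only 269 bp away. The remaining 2, ZNF541 (680 bp) and ZNF358 (647 bp), had the narrowest peaks of the 12. No annotated start of ZNF541 lay under an RS4;11 peak, so its mark rests on the exon flag alone.

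In THP-1 the widest was that of ZNF536 (3396 bp), a long gene outside the clusters that is known from neural cells. The nearest RS4;11 peak lay 604716 bp away. No annotated start of ZNF536 lay under a THP-1 peak, so its mark also rests on the exon flag alone. ZNF490 and ZNF791 shared a peak of 2702 bp, followed by ZNF433 (2656 bp), ZNF492 (2644 bp), ZNF98 (2529 bp), ZNF556 (2429 bp), ZNF580 (2378 bp), ZNF264 (2271 bp) and ZNF549 (2086 bp). Over all 26 genes of THP-1 only the median width was 1977 bp, below the 2205 bp in the same line over the 165 genes marked in both. In RS4;11 it was likewise 2021 bp over the 12 genes of that line only and 2302 bp over the 165.

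The distance to the other line's signal differed between the directions. For 20 of the 26 genes of THP-1 only, the nearest RS4;11 peak was over 20 kb away, and 16 were not listed in RS4;11 at all. These shares, 76.9% (57.9% to 89.0%) and 61.5% (42.5% to 77.6%), compare with 60.9% and 39.9% of the 2621 genes of all kinds marked in THP-1 only. For the 12 genes of RS4;11 only, the nearest THP-1 peak was over 20 kb away in 4, and 3 were not listed in THP-1. Of the 1464 genes of all kinds marked in RS4;11 only, 39.1% were over 20 kb away, against 33.3% (13.8% to 60.9%) of the 12, and 23.9% were not listed in THP-1. A wider gap in the THP-1 direction was thus present over all genes too. The median gap was 43007 bp for the THP-1 genes and 9292 bp for the RS4;11 genes.

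**Figure D3:**
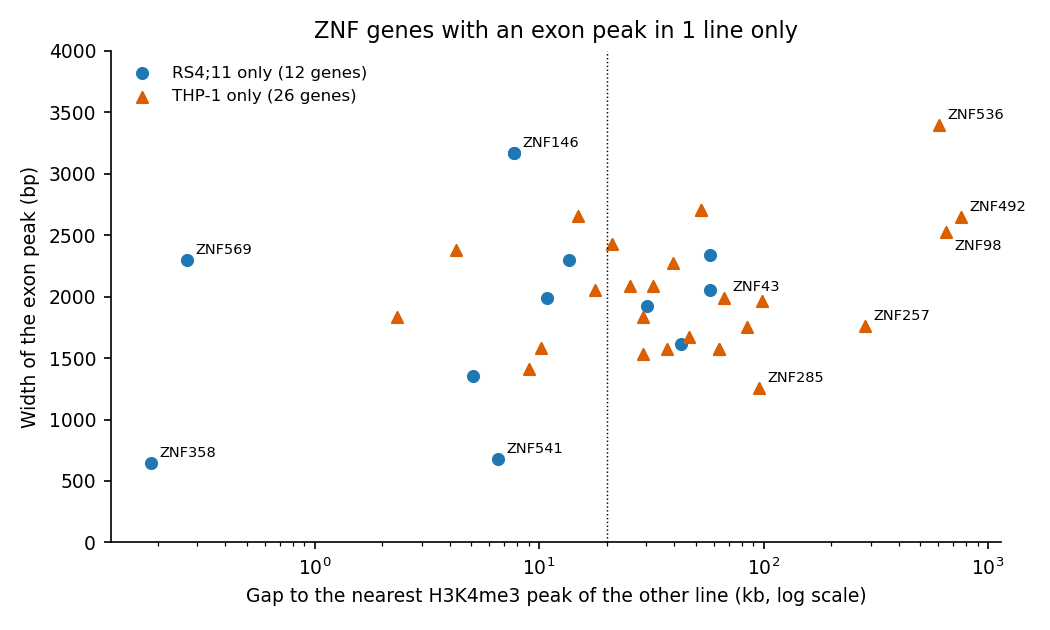
Width (bp) of the exon peak against the gap (kb, log scale) to the nearest H3K4me3 peak of the other line, for the 12 ZNF genes marked in RS4;11 only (circles) and the 26 marked in THP-1 only (triangles); the dotted line marks 20 kb. Most triangles, 20 of 26, stand to the right of the line, with ZNF536, ZNF98 and ZNF492 beyond 600 kb, while 4 of 12 circles do.

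The 23 H3K4me3-listed members with no exon peak, together with ZNF560 and ZNF229, had no peak in an intron either. In RS4;11, 20 of these 25 had a peak only outside the transcript and 5 had none listed, and in THP-1 the numbers were 22 and 3. The 5′ end annotated in GENCODE was nevertheless under a peak in both lines for 7 of them: ZNF320, ZNF383, ZNF439, ZNF550, ZNF558, ZNF567 and ZNF699. For these, named after their values were seen, the exon flag and the GENCODE start disagreed, and the reason was not tested. The group also included the pseudogenes ZNF137P, ZNF542P, ZNF702P, ZNF781 and ZNF833P.

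The fingers encoded by each gene were counted in its translated coding sequence, which was possible for 245 annotated genes. The median was 12 fingers (11 to 13), with a range of 1 to 36. Genes marked in both lines had a median of 12, those marked in RS4;11 only 10 (7 to 12), those marked in THP-1 only 13 (10 to 15), and those marked in neither 11 (10 to 14). The 25 annotated genes that are not members had a median of 14 (13 to 15). A string typical of the KRAB box was found in 206 of the 245 (84.1%), in 135 of the 162 marked in both, in 7 of the 12 of RS4;11 only (58.3%, 32.0% to 80.7%), in 22 of the 26 of THP-1 only, and in 20 of the 20 marked in neither.

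The ZNF genes of chromosome 19 fell into 10 clusters, taken as runs of at least 5 annotated genes with at most 500 kb between neighbours. The clusters held 232 of the 246 annotated genes on 14.5 Mb, or 26.0% of the chromosome, and 212 of the members. They are numbered here along the chromosome, clusters 1 to 4 on the short arm and 5 to 10 on the long arm. Listed H3K4me3 peaks were sparser in the clusters than in the rest of the chromosome, with 17.8 per Mb in RS4;11 and 18.9 in THP-1, against 27.9 and 31.8. Only peaks within 20 kb of a gene of the authors' table are listed, so these densities also depend on that table.

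Cluster 10, from ZNF264 to ZNF446, was the largest with 43 annotated genes. Of its 41 members, 32 were marked in RS4;11 (78.0%, 63.3% to 88.0%) and 37 in THP-1 (90.2%, 77.5% to 96.1%). Its first gene, ZNF264, was marked in THP-1 only, and its last, ZNF446, in both lines (2275 and 2402 bp). Cluster 8, from ZNF175 to ZNF331, had 38 members, of which 27 were marked in RS4;11 and 31 in THP-1. Cluster 9, from ZNF628 to ZNF835, had 9 of 14 marked in RS4;11 (64.3%, 38.8% to 83.7%) and 13 in THP-1 (92.9%, 68.5% to 98.7%).

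In these clusters 8, 9 and 10 every gene marked in RS4;11 was also marked in THP-1, and the genes of 1 line only, 13 in all, were of THP-1. The genes of RS4;11 only stood mainly in clusters 3, from ZNF653 to ZNF791, and 6, from ZNF565 to ZNF573, with 4 in each. There THP-1 had 3 and 2 genes of its own. Cluster 3 had 21 of 26 members marked in RS4;11 and 20 in THP-1, and cluster 6 had 17 and 15 of 23.

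The remaining clusters showed few differences between the lines. Cluster 2, from ZNF414 to ZNF846, had 10 of 13 members marked in both lines and none in 1 line only. In cluster 5, from ZNF302 to ZNF792, all 5 genes were marked in both. Cluster 7, from ZNF575 to ZNF180, had 18 of 21 marked in both and 1 in each line alone. Cluster 1, from ZNF554 to ZNF77, had 4 of 5 marked in both, with ZNF556 in THP-1 only.

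**Figure D4:**
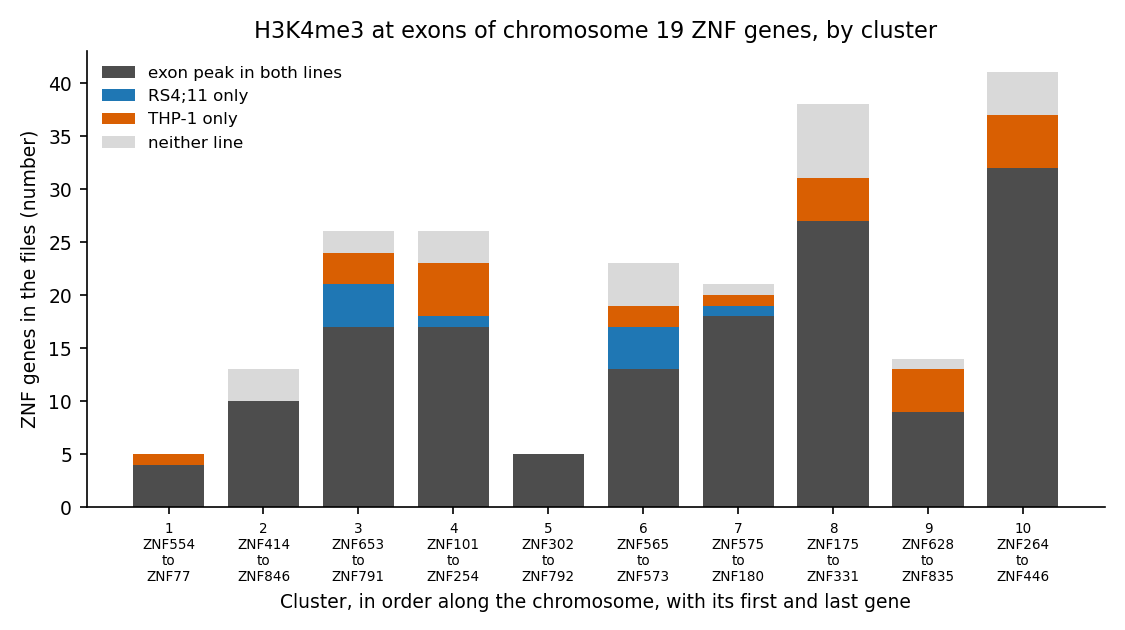
Number of chromosome 19 ZNF genes in the files by cluster, in order along the chromosome, split by the lines in which an H3K4me3 peak touched an exon (both, RS4;11 only, THP-1 only, neither). Both-line genes make up most of each bar, RS4;11-only genes appear mainly in clusters 3 and 6 with 4 each, and clusters 8, 9 and 10 hold 4, 4 and 5 THP-1-only genes.

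Cluster 4, from ZNF101 to ZNF254, was the longest (4.53 Mb) and had the fewest listed H3K4me3 peaks per Mb, 5.96 in RS4;11 and 7.06 in THP-1. It also had the fewest annotated ZNF genes per Mb, 8.16, against 9.78 to 40.0 in the other clusters. Of its 37 annotated genes 11 were not listed. Of its 26 members 18 were marked in RS4;11 (69.2%, 50.01% to 83.5%) and 22 in THP-1 (84.6%, 66.5% to 93.8%). The first and last genes were marked in both lines, ZNF101 with 2436 and 2254 bp and ZNF254 with 2573 and 2281 bp.

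Within this cluster RS4;11 had no listed H3K4me3 peak over 1626 kb (chr19:21950924-23576665, build hg19), between the peak at ZNF100 and the one at ZNF91. This stretch holds the starts of 12 ZNF genes: ZNF43, ZNF208, ZNF257, ZNF676, ZNF729, ZNF98, ZNF492, ZNF99, ZNF723, ZNF728, ZNF730 and ZNF724. In THP-1 the same stretch held 7 peaks. They touched exons of ZNF43 (1991 bp), ZNF257 (1762 bp), ZNF98 (2529 bp) and ZNF492 (2644 bp), and 1 lay over the annotated start of ZNF99 without an exon flag (1394 bp). The remaining peaks were flagged outside the listed transcripts of ZNF43 and ZNF98. By GENCODE, the one at ZNF43 (1805 bp) lay over the annotated 5′ end of that gene. The one at ZNF98 (1508 bp) lay inside the annotated gene. Those 5 genes are therefore in the authors' gene table, and a peak near them in RS4;11 would have been listed. The other genes that start in the stretch are not members, so a peak beside them could have gone unlisted in either line. Elsewhere on chromosome 19, longer gaps between listed RS4;11 peaks measured 3999 and 2401 kb. The longest gaps between THP-1 peaks on the chromosome measured 3999, 1430 and 1011 kb. Whether these longer gaps of the chromosome hold undetermined bases of the hg19 sequence was not examined. The 1626 kb stretch held 0 such bases.

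The longest stretch of this cluster without a THP-1 peak was 608 kb and held 4 gene starts, ZNF723, ZNF728, ZNF730 and ZNF724. None of these 4 is a member, so a peak beside them could have gone unlisted. Without the genes that start in the RS4;11 stretch, which were set aside after the data were seen, 22 genes remained marked in THP-1 only in place of 26. The RS4;11 WDR5 list had 1 peak in the stretch, near its ZNF91 end. A loss of this DNA on some or all copies was not tested, since the lists give no input or read depth.

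**Figure D5:**
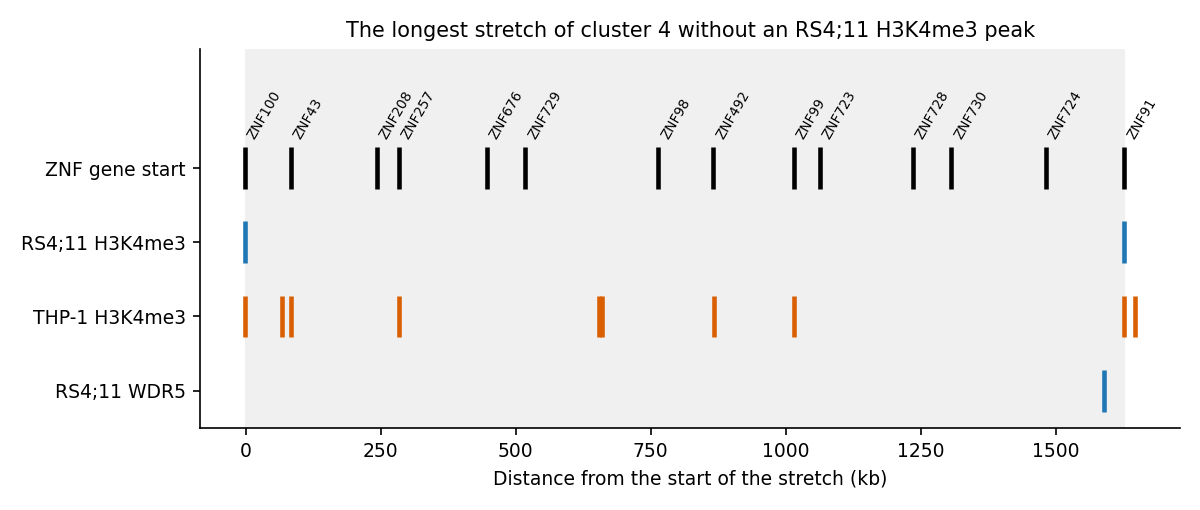
Map of the stretch of cluster 4 without an RS4;11 H3K4me3 peak (shaded), with 100 kb on each side, as distance (kb) from its start; ticks mark annotated ZNF gene starts and the centres of H3K4me3 and WDR5 peaks. RS4;11 H3K4me3 peaks stand only at the 2 edges, THP-1 has 7 peaks inside, and the single RS4;11 WDR5 peak lies near the ZNF91 end.

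Shorter stretches of this kind occurred in other clusters. In cluster 8, RS4;11 had no peak over 228 kb that holds the starts of ZNF610, ZNF880, ZNF528, ZNF534 and ZNF578, of which ZNF610 (1576 bp) and ZNF528 (1963 bp) had an exon peak in THP-1. In cluster 10, 233 kb without an RS4;11 peak held ZNF418, ZNF256, ZNF606 and ZNF135, and ZNF256 (1832 bp) and ZNF606 (1751 bp) were marked in THP-1. In cluster 7, 194 kb held ZNF112, ZNF285 and ZNF229, and ZNF285 (1258 bp) was marked in THP-1. ZNF534, ZNF135 and ZNF112 are not members, so a peak beside them could have gone unlisted.

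WDR5 was listed at few of these genes. In RS4;11, 7 peaks were listed at 10 of the 228 members (4.39%, 2.40% to 7.88%), against 4.69% of all genes listed in the 4 files, and in THP-1 0 peaks, against 1.7% of genes. The members' share in RS4;11 was near the background. By position, 9 of the 22 RS4;11 WDR5 peaks on chromosome 19 lay in a ZNF cluster (40.9%) and 0 of the 9 THP-1 peaks. The clusters cover 26.0% of the chromosome and hold 258 of its 1413 RS4;11 H3K4me3 peaks. These WDR5 counts are small, and a difference between the lines was not tested. The 7 peaks measured 337 to 470 bp, with a median of 453 bp, against 393 bp over all 703 WDR5 peaks of that line.

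The central 300 bases of the peak at ZNF792 are shown because it lay within an H3K4me3 peak of the same line. They are given on the plus strand of build hg19 (GRCh37), and CG would be in capitals.
ZNF792 (chr19:35452720-35453019): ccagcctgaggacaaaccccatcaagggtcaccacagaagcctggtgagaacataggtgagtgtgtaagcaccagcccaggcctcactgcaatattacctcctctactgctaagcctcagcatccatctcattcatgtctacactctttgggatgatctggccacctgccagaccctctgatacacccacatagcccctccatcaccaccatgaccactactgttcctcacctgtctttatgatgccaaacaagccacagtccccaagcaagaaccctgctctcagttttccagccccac

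The ZNF792 peak (chr19:35452644-35453096) lay in an intron, 2263 bp from the start and downstream of ZNF30, within an H3K4me3 peak of 3155 bp. It held 0 CG dinucleotides in 453 bp. Another peak, upstream of ZNF700 and downstream of ZNF69, also lay within an H3K4me3 peak, which measured 3357 bp. The peak at ZNF560 lay upstream of that gene, and no H3K4me3 peak was listed for ZNF560 in either line.

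The ZNF560 peak and the other 4 lay outside H3K4me3 peaks. A second peak at ZNF700 (chr19:12052816-12053270) was intronic, 15268 bp from the nearest H3K4me3 peak. The peak at ZNF91 (chr19:23540474-23540943) was flagged at an exon and downstream, 37565 bp from the annotated start, and 27.7% of its bases were G or C. One peak stood between ZNF180 and ZNF229 (chr19:44961267-44961605), 41595 bp from H3K4me3, and one between ZNF17 and ZNF749 (chr19:57935377-57935840), 9925 bp from H3K4me3.

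Thus 2 of the 7 peaks at members overlapped H3K4me3 of the same line, and 58 of all 703 RS4;11 WDR5 peaks did (8.25%, 6.44% to 10.5%). Of the 10 genes, 8 carried an exon H3K4me3 peak in RS4;11, near the 78.3% of all members, and each of the 8 was marked in both lines: ZNF17 (1712 bp), ZNF30 (1772 bp), ZNF69 (2486 bp), ZNF91 (2342 bp), ZNF180 (2324 bp), ZNF700 (3357 bp), ZNF749 (2732 bp) and ZNF792 (3155 bp). Of the 9 peaks in clusters, the 2 listed at no member stood at HKR1, whose current symbol is ZNF875, and at EPN1 and U2AF2. Each of those overlapped an H3K4me3 peak.

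The partners through which KRAB zinc finger proteins act were read the same way. Of 14 such genes, 10 had an exon H3K4me3 peak in RS4;11 and 10 in THP-1, where 60.1% and 66.4% of all listed genes had one. TRIM28, the corepressor that binds the KRAB box, was marked in RS4;11 only (3808 bp). The H3K9 methyltransferase SETDB1 had a peak of 2538 bp in RS4;11 and 2391 bp in THP-1. Its cofactor ATF7IP (3383 bp) and the remodeller CHD3 (3573 bp) were marked in THP-1 only, and MORC2 (2931 bp) in RS4;11 only. HDAC1, HDAC2, DNMT1, UHRF1, ATRX, MPHOSPH8 and CBX1 were marked in both. CBX5 had no exon peak, and CBX3 was not listed in either line. A WDR5 peak was listed in RS4;11 at SETDB1 and HDAC1 and in THP-1 at 0 of the 14, against 4.69% and 1.7% of all genes. The limit on peak width given above also holds for these genes.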

How the data were processed

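ChIP-seq peaks of WDR5 and H3K4me3 were analysed in RS4;11 and THP-1 cells, 1 library each, 4 samples. Per the labels and the study's methods, the authors sonicated chromatin for WDR5 and digested it with MNase for H3K4me3. Reads were aligned to hg19 with Eland, with up to 2 mismatches and unique alignments only, and peaks were called with MACS at default settings. CASAVA 1.7 and 1.8.2 are named in the submitters' processing notes. The deposited tables list, per peak and transcript within 20 kb, the position, gene symbol and yes or no flags for upstream, downstream, exon and intron, with no score. Depth is unknown.

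Width is end minus start plus 1. Overlap needed 1 bp. GENCODE v44lift37 gave gene starts and coding sequences. Shares carry Wilson and medians order-statistic 95% intervals (Python 3.11.15, pandas 2.3.3, scipy 1.17.1). Without replicates no test was run. Functions were tested on simulated data. Members and lists were chosen with earlier results of these data known. Named genes were those with a WDR5 peak, the 10 widest of 1 line only, the widest and narrowest 5 per line, a role list, cluster ends and KRAB partners; others are named for a count. Fingers were counted in translated coding sequence, a choice made after the files were seen. Of the members, 221 matched a protein-coding gene, 5 a pseudogene and 2 (ZNF321, ZNF788) no annotation. One gene of the marker list and the sequences of some peaks are not reported here.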

Additional observations from a re-analysis of the deposited data

How the results depend on the processing

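Of 54 alternatives over 13 results, 50 stayed within 1.5 times the count or within the interval reported. With any peak listed for the gene counted as a mark, the genes marked in RS4;11 only numbered 4 in place of 12, and those in THP-1 only 19 in place of 26. With exons of any gene counted, the share of peaks touching an exon was 77.8% in RS4;11 and 77.5% in THP-1. WDR5 peaks inside a transcript of a member in RS4;11 numbered 3 in place of 7. A gap of 250 kb gave 12 clusters and one of 1000 kb gave 9, in place of 10. Counting starts of any transcript and leaving out the stretch in cluster 4 were chosen after seeing the data. No paired analysis was possible because each antibody and line had 1 library and no test was run. Peak lists without scores, depth or input limit every absence given here.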
